A study of Mus musculus with 8 samples.

Results

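Zbtb16, Sall4, Taf4b, Uchl1, Tex14 and Adgra3 were examined as genes that mark undifferentiated spermatogonia (A_undiff) as a whole. They were chosen by symbol, and all 6 were in the count table of 14608 genes. All 6 passed the filter on low counts, as did every other gene of the table. A_undiff were sorted from testes of adult wild-type C57BL/6J mice aged 6 to 8 weeks as E-cadherin positive, CD49f positive and c-KIT negative cells. In the BU group (4 libraries, BU 2 to BU 5), mice were given busulfan, an alkylating agent, once at 10 mg/kg and their testes were analysed at day 10. In the CTRL group (4 libraries, CTRL 1 to CTRL 4), mice were untreated, so the comparison holds injection and drug together. Testes were taken from 4 mice per group for this experiment, although no label matches a library with its animal.

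A_undiff contain the stem cells of the male germline and the progenitors they give rise to. They exist as single cells, pairs and chains joined by intercellular bridges. PLZF (the product of Zbtb16) and SALL4 are zinc finger transcription factors that occupy a shared set of genes in these cells, and PLZF is required for long-term self-renewal. TAF4B is a gonad-enriched subunit of the general transcription factor TFIID, and its loss causes progressive germ cell depletion in male mice. UCHL1 (PGP9.5) is a deubiquitinase abundant in neurons and spermatogonia. TEX14 holds intercellular bridges open by blocking the final cut of cell division. ADGRA3 (GPR125) is an adhesion G protein-coupled receptor expressed on mouse spermatogonia.

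Zbtb16 was the only one of the 6 genes that passed the criteria for a differentially expressed gene (DEG), an adjusted p below 0.05 and a fold change above 1.5, and it was lower in regenerative A_undiff (BU). Uchl1 was lower by almost the same fold as the threshold. Sall4 was modestly lower and Adgra3 modestly higher, whereas Taf4b and Tex14 differed little. Of all genes tested, 13.3% were DEGs, 6.8% higher and 6.54% lower in BU. A gene said to rise or fall in BU below was a DEG by these criteria. At any fold, 4 of the 6 genes had an adjusted p below 0.05, 3 of them lower and 1 higher in BU. The share among all genes was 32.1%, with 16.9% lower and 15.2% higher. The ranges of the BU and CTRL libraries did not overlap for 4 of the 6 genes, against 30.3% of all genes. The median log2 fold change of all genes was -0.0059.

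Library totals ranged over 17181963 to 24243985 counts in BU and 18152779 to 23875108 in CTRL. Mitochondrial genes took 42.04 to 45.55% of counts in BU and 39.78 to 43.49% in CTRL. The 6 genes had 442 to 5743 counts per library, which gives a counting error of 1.32 to 4.76%. Markers of the labelled population were present in all libraries, and no listed marker in the table was at 0 in any library. In these bulk samples, fewer cells of a type and less RNA per cell cannot be told apart. Summed CPM (library-scaled read counts, using the trimmed mean of M-values, TMM) of 4 progenitor genes (Neurog3, Rarg, Upp1 and Sox3) was 12.2 to 21.8 in BU and 59.7 to 70.7 in CTRL, and all 4 fell. Summed CPM of 6 stem cell-associated genes was 358.1 to 456.1 in BU and 289.6 to 330.6 in CTRL, with 2 of the 6 (Eomes and Lhx1) rising. Gfra1 and Etv5 were also higher in BU with no overlap, but short of the fold threshold. Their log2 fold changes were 0.54 and 0.53 (limma-voom adjusted p = 0.000262 and 7.1e-05). Id4 and Ret did not pass the test (limma-voom adjusted p = 0.335 and 0.628). Summed CPM of 4 genes of differentiating spermatogonia (Kit, Stra8, Dmrtb1 and Sohlh2) was 176.2 to 229.8 in BU and 71.9 to 88.8 in CTRL, and all 4 rose. Sohlh1, placed below among other genes of A_undiff at large, fell instead (log2 fold change -0.70). Stra8 ranges overlapped between groups (18.5 to 29.4 CPM in BU, 9.81 to 21.5 CPM in CTRL). The authors also used Stra8 to identify A_undiff in transition between stem and progenitor states. Of 7 immune cell markers, 4 were in the table and all 4 rose, with summed CPM of 22.2 to 33.5 in BU and 8.32 to 15.4 in CTRL. Of 6 Sertoli cell markers, 4 were in the table and 2 (Sox9 and Cldn11) rose, with summed CPM of 16.7 to 23.3 in BU and 14.002 to 19.8 in CTRL. The single Leydig and the single peritubular myoid marker in the table did not pass, nor did any of 6 spermatid genes, and 1 of 5 meiotic genes (Spo11) fell. The part of these markers in the results on the 6 genes was not tested.

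Zbtb16 encodes PLZF, a repressor of the BTB zinc finger family. It lies on chr9:48654297-48836222 (GRCm38, minus strand), with 8 exon blocks. Zbtb16 was measured at 108.0, 119.5, 98.7 and 103.2 CPM in BU 2, 3, 4 and 5, against 189.3, 180.0, 187.5 and 187.6 CPM in CTRL 1, 2, 3 and 4. Every BU library was below every CTRL library, with a wide gap between the groups. Zbtb16 averaged 107.3 ± 8.95 CPM in BU and 186.1 ± 4.15 CPM in CTRL (SD, n = 4 each). It was 1.73-fold lower in BU (log2 fold change -0.79, SE 0.06, 95% interval -0.92 to -0.66, limma-voom adjusted p = 4.96e-08). The interval lay wholly beyond the 1.5-fold threshold, although a test against that fold itself gave a limma treat adjusted p of 0.0636.

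Sall4 encodes the SALL family factor that recruits the NuRD chromatin remodelling complex. It lies on chr2:168748332-168767943 (GRCm38, minus strand), with 7 exon blocks. Sall4 was measured at 201.6, 222.4, 187.3 and 188.6 CPM in BU 2, 3, 4 and 5, against 268.8, 246.6, 228.3 and 238.2 CPM in CTRL 1, 2, 3 and 4. All BU libraries were below all CTRL libraries, but BU 3 came close to CTRL 3. Its log2 fold change was -0.29 (SE 0.06, 95% interval -0.43 to -0.15, limma-voom adjusted p = 0.00231). Of the exonic bases of Sall4, 9.50% overlapped a gene on the opposite strand, and whether counting used strand is not given in the sources used here.

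Taf4b, the TFIID subunit, lies on chr18:14783245-14900359 (GRCm38, plus strand). Taf4b was measured at 116.9, 121.3, 113.9 and 114.1 CPM in BU 2, 3, 4 and 5, against 113.3, 104.9, 109.4 and 104.6 CPM in CTRL 1, 2, 3 and 4. All BU libraries were above all CTRL libraries by a narrow margin, and the gene had the tightest BU values of the 6. The log2 fold change was 0.11 (SE 0.06, 95% interval -0.0075 to 0.23), and it did not pass the test (limma-voom adjusted p = 0.145). The interval reached at most a log2 difference of 0.23 towards BU.

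Tex14, the bridge gene, lies on chr11:87405065-87555823 (GRCm38, plus strand), with 32 exon blocks. Tex14 was measured at 196.5, 229.1, 197.7 and 209.3 CPM in BU 2, 3, 4 and 5, against 217.4, 187.2, 208.8 and 204.9 CPM in CTRL 1, 2, 3 and 4. The groups overlapped throughout, and the highest library (BU 3) and the lowest (CTRL 2) were in different groups. No difference was detected, with a log2 fold change of 0.03 (SE 0.06, 95% interval -0.10 to 0.16, limma-voom adjusted p = 0.781).

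Uchl1, the deubiquitinase gene, lies on chr5:66676091-66687234 (GRCm38, plus strand), with 9 exon blocks. Its promoter is shown because an antisense gene counted in the same libraries, Uchl1os, overlaps both it and the first exons of Uchl1. The sequence is the part of the RefSeq promoter window (GRCm38.p6, chr5:66675871-66676090, plus strand, 5′ to 3′) that precedes the first exonic base of Uchl1. RefSeq windows were found for 3 of the 6 genes (Uchl1, Tex14 and Adgra3). Capitals mark the 192 of 220 bases that lie in exons of Uchl1os on the opposite strand.
Uchl1 promoter: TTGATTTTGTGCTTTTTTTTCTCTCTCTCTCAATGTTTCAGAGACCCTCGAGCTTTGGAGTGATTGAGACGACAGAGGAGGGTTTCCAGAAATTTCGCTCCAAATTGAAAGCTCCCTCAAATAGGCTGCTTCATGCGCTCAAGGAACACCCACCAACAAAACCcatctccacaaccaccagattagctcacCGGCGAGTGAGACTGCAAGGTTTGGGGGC
Most of this promoter was therefore also exonic sequence of the antisense gene, which shared a further 295 exonic bases with Uchl1 itself (18.1% of the exonic bases of Uchl1).

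Uchl1 was measured at 117.3, 101.3, 123.3 and 98.1 CPM in BU 2, 3, 4 and 5, against 157.2, 173.6, 175.7 and 150.6 CPM in CTRL 1, 2, 3 and 4. The groups did not overlap, and BU 3 and BU 5 were the lowest libraries. Uchl1 averaged 110.01 ± 12.2 CPM in BU and 164.3 ± 12.3 CPM in CTRL (SD, n = 4 each). The estimate was a log2 fold change of -0.58 (SE 0.08, 95% interval -0.74 to -0.42, limma-voom adjusted p = 1.64e-05). This was a 1.497-fold lower level in BU, just short of the 1.5-fold threshold, and 5 of 20 other settings put it past that fold. Without BU 3 and BU 5 the log2 fold change was -0.44. C3 and Cp, which encode secreted plasma proteins, were most abundant in these 2 BU libraries (summed to 124.2 and 120.2 CPM, against 60.6 and 86.1 CPM in BU 2 and BU 4 and 12.5 to 31.8 CPM in CTRL), and the part of this in the Uchl1 level was not tested.

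Uchl1os was measured at 1.93 ± 0.435 CPM in BU and 2.98 ± 0.418 CPM in CTRL (SD, n = 4 each), far below Uchl1. Its log2 fold change was -0.68 (SE 0.25, limma-voom adjusted p = 0.0452). The adjusted p of Uchl1os was 0.0529 to 0.184 when BU 3, BU 4, BU 5, CTRL 1, CTRL 2 or CTRL 4 was left out, 0.0619 with edgeR and 0.0591 with DESeq2. Reads from Uchl1 and its antisense partner in the shared exons cannot be told apart without strand.

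Adgra3, the adhesion receptor gene, lies on chr5:49959956-50059006 (GRCm38, minus strand), with 23 exon blocks. Adgra3 was measured at 25.4, 34.9, 31.7 and 35.7 CPM in BU 2, 3, 4 and 5, against 23.6, 24.2, 25.1 and 27.1 CPM in CTRL 1, 2, 3 and 4. BU 2 fell within the CTRL range, and the other 3 BU libraries were above all CTRL libraries. The log2 fold change was 0.35 (SE 0.10, 95% interval 0.13 to 0.56, limma-voom adjusted p = 0.0161). Without BU 3 and BU 5, the libraries highest in C3 and Cp, the log2 fold change of Adgra3 was 0.19 (limma-voom adjusted p = 0.231).

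**Figure D1:**
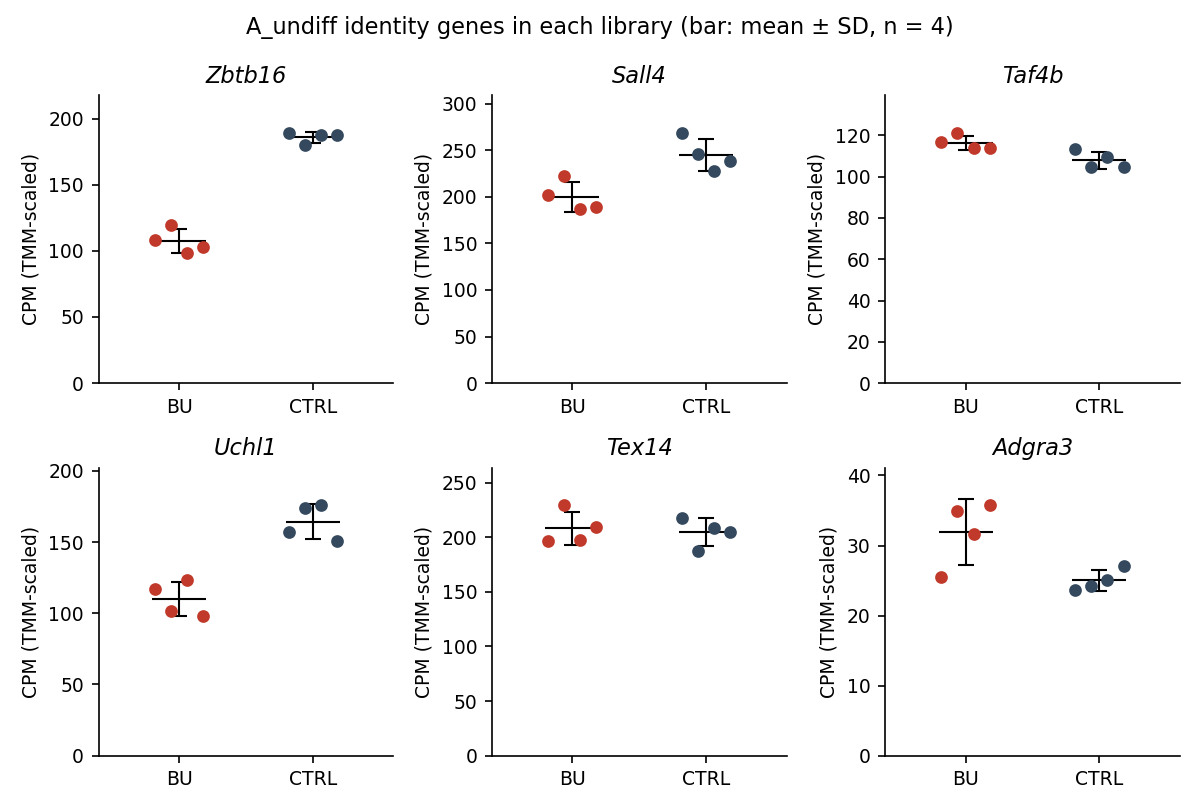
TMM-scaled CPM (linear axis from 0) of each gene in the 4 BU and 4 CTRL libraries, with points for libraries and bars for mean ± SD. Zbtb16 and Uchl1 separate widely between groups, Sall4 and Taf4b narrowly in opposite directions, and Tex14 and Adgra3 overlap.

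The summed CPM of the 6 genes was 749.0 to 828.4 in BU and 913.0 to 969.7 in CTRL. To compare levels between genes, counts were also divided by exonic length (RPKM, CPM per kilobase of exon). On the RPKM scale Uchl1 was highest in both groups, at 67.4 ± 7.47 RPKM in BU and 100.7 ± 7.52 RPKM in CTRL (SD, n = 4 each). Adgra3 was lowest in both, at 3.94 RPKM in BU and 3.08 RPKM in CTRL. In BU the order below Uchl1 was Tex14 (41.5 RPKM), Sall4 (36.1 RPKM), Taf4b (22.6 RPKM) and Zbtb16 (20.3 RPKM). In CTRL it was Sall4 (44.3 RPKM), Tex14 (40.8 RPKM), Zbtb16 (35.2 RPKM) and Taf4b (20.98 RPKM). Zbtb16 was thus above Taf4b in CTRL with no overlap, whereas the ranges of the pair overlapped in BU. Sall4 and Tex14 overlapped in both groups. All other neighbours in the order were separated in range.

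**Figure D2:**
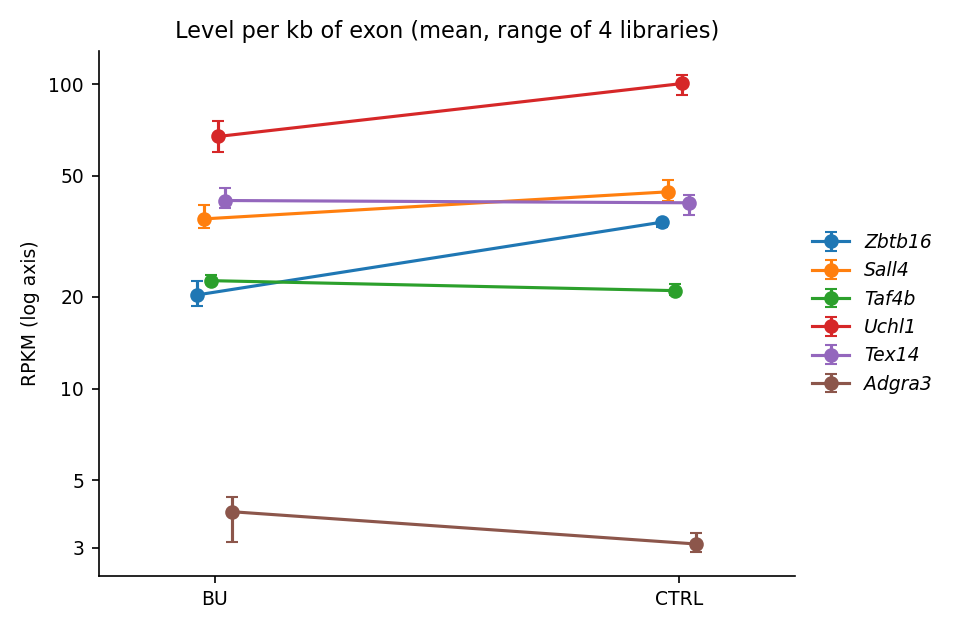
Mean RPKM (log axis) of the 6 genes in BU and CTRL, with bars for the range of 4 libraries. Zbtb16 stands at 20.3 RPKM in BU, beside Taf4b at 22.6 RPKM, and at 35.2 RPKM in CTRL, well above Taf4b at 20.98 RPKM.

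Ratios of 2 genes within a library do not depend on library scaling, so the relative levels of the 6 genes were compared for all 15 pairs. Two-sided exact permutation tests were used over the 8 libraries. The smallest p that 4 against 4 libraries allow is 0.0286, and p-values were adjusted over the 15 pairs. The groups did not overlap for 10 of 15 pairs, each at the smallest p (exact permutation, adjusted p = 0.0429). The 15 pairs share 6 genes, so they are not independent, and the share among pairs of other genes was not computed. Zbtb16 was lower relative to each of the other genes except Uchl1. The count ratio of Zbtb16 to Sall4, the partner factors, was 0.527 to 0.547 in BU and 0.704 to 0.821 in CTRL (log2 difference -0.50). The count ratio of Zbtb16 to Taf4b averaged 0.919 in BU and 1.72 in CTRL (log2 difference -0.91). The count ratio of Zbtb16 to Tex14 averaged 0.515 in BU and 0.911 in CTRL (log2 difference -0.82). The largest log2 difference was that of Zbtb16 to Adgra3, at -1.14.

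Sall4 was lower relative to Taf4b (log2 difference -0.41), Tex14 (-0.32) and Adgra3 (-0.64). Uchl1 was lower relative to Tex14 (log2 difference -0.61) and Adgra3 (-0.92), and the Taf4b to Uchl1 ratio was higher in BU (log2 difference 0.69). The ratio of Zbtb16 to Uchl1 did not pass (log2 difference -0.22, exact permutation p = 0.143), nor did Sall4 to Uchl1 (log2 difference 0.29, exact permutation p = 0.114). Ratios among Taf4b, Tex14 and Adgra3 did not pass either, with log2 differences of 0.09, -0.23 and -0.32 (exact permutation p = 0.0571 to 0.143). The 6 genes thus fell into Zbtb16, Uchl1 and Sall4, which were lower relative to all 3 of the others, and Taf4b, Tex14 and Adgra3.

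**Figure D3:**
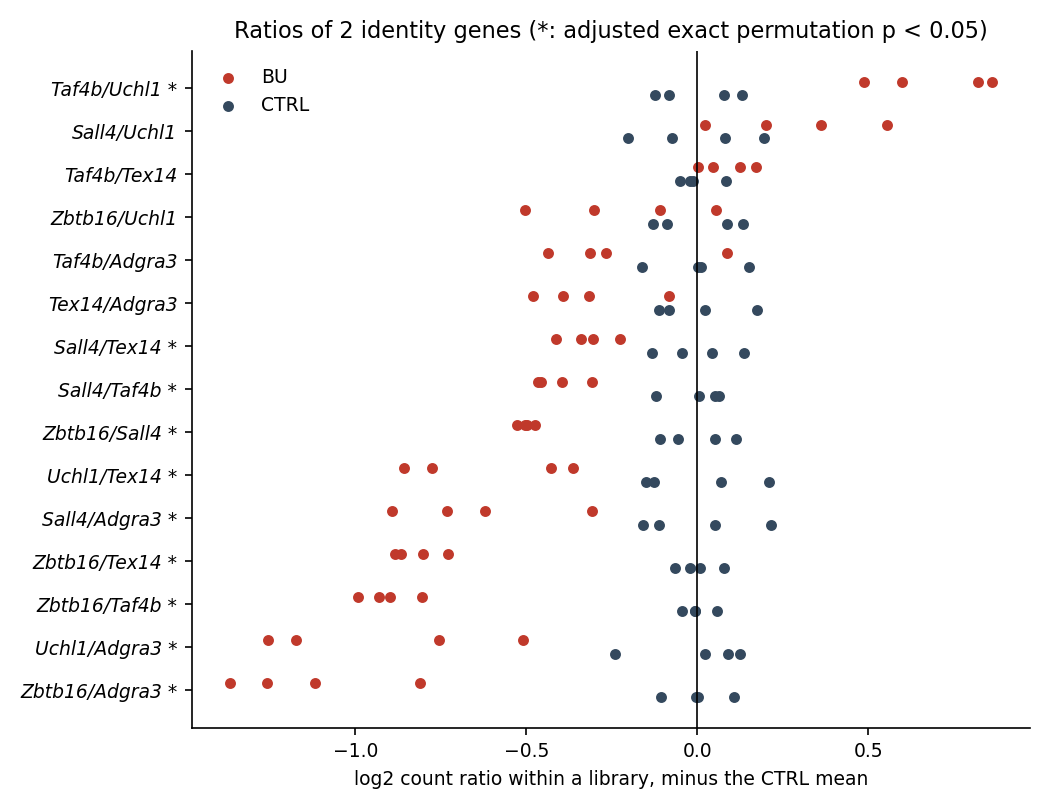
log2 count ratio of each pair of genes in each library, minus the mean of the CTRL libraries (x axis), with BU points drawn above CTRL points in every row. The 10 starred pairs do not overlap between groups, and the Zbtb16/Sall4 points of BU lie closely together.

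Genes with the most similar pattern were taken by Pearson correlation of log2 CPM over the 8 libraries, as a description. These points share the group difference and the scaling. Oasl2 (r = 0.998), Setd7 (0.998) and Myo7a (0.997) were most like Zbtb16, and all 3 fell in BU, by 1.82, 1.45 and 1.20 on the log2 scale. Setd7 encodes a lysine methyltransferase and Myo7a an unconventional myosin. Ctdspl (r = 0.981), Zfp521 (0.978) and Gse1 (0.978) were most like Sall4. Mier1 (r = 0.988), Cacna1d (0.981) and Papd7 (0.979) were most like Uchl1. Cacna1d, an L-type calcium channel gene, fell by 1.26 on the log2 scale. Dnajb14 (r = 0.967), Smap1 (0.960) and Smarcd2 (0.954) were most like Taf4b. Bbs10 (r = 0.968), Ap3b1 (0.947) and Qk (0.931) were most like Tex14, and Rabl3 (r = 0.977), Cenpn (0.970) and Osbp2 (0.963) were most like Adgra3.

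With the group means removed, Zbtb16, Sall4, Taf4b and Tex14 deviated together over the 8 libraries (r = 0.54 to 0.76). The correlations of Uchl1 with the 5 other genes were all below 0, some weakly (r = -0.64 to -0.18). None of these correlations was tested, and all share the library scaling. Zbtb16 and Uchl1 were both lower in BU, with r = -0.48 once the group means were removed.

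Genes around the 6 were then described by list. Of 10 other genes of A_undiff at large, 9 were in the table, 4 of which fell and none rose, with a median log2 fold change of -0.30. Among all genes, 6.54% fell and 6.8% rose. Foxo1, a transcription factor required for stem cell maintenance, fell to 170.7 ± 9.93 CPM in BU, against 291.5 ± 19.2 CPM in CTRL (SD, n = 4 each). Its log2 fold change was -0.77 (limma-voom adjusted p = 4.96e-08), close to that of Zbtb16. Nanos3, an RNA-binding protein gene of germ cells, had the lowest value of the list (log2 fold change -1.69, limma-voom adjusted p = 4.57e-06). Utf1 (log2 fold change -1.42) and Sohlh1 (-0.70), both genes of spermatogonial nuclear factors, fell too. The authors count Sohlh1 among progenitor-associated genes. Without BU 3 and BU 5 the log2 fold change of Sohlh1 was -0.56, below the fold threshold. Ddx4, Dazl, Dmrt1 and the genes of the 2 sorting antigens, Cdh1 and Itga6, did not meet the criteria. The progenitor genes given above moved in the same direction as these 4 genes and Zbtb16.

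Of 3 genes that PLZF and SALL4 are known to regulate in spermatogonia, 1 rose and 2 fell, against 13.3% DEGs among all genes. Kit, which PLZF represses, was measured at 81.8, 78.6, 110.2 and 83.7 CPM in BU 2, 3, 4 and 5, against 14.9, 20.9, 15.6 and 15.1 CPM in CTRL 1, 2, 3 and 4. All BU libraries were several-fold above all CTRL libraries (log2 fold change 2.42, SE 0.13, limma-voom adjusted p = 8.02e-10). Cells carrying c-KIT, the receptor that Kit encodes, were gated out of both groups, so the value is of mRNA in cells sorted as c-KIT negative. Ddit4, an mTORC1 inhibitor that PLZF activates, fell to 6.53 ± 2.31 CPM in BU, against 15.8 ± 1.31 CPM in CTRL (SD, n = 4 each, log2 fold change -1.28, limma-voom adjusted p = 3.12e-05). BU 3 had the highest Ddit4 level of the BU libraries, at 9.89 CPM, and was still below all CTRL libraries. Sall1, the SALL4 paralog, was measured at 35.1, 34.7, 29.5 and 27.5 CPM in BU 2, 3, 4 and 5, against 100.6, 74.9, 82.4 and 84.3 CPM in CTRL 1, 2, 3 and 4. It fell in BU with no overlap (log2 fold change -1.42, SE 0.10, limma-voom adjusted p = 1.69e-08). In single cells, the authors report strong Ddit4 expression and predicted SALL1 activity in progenitors, whose marker genes fell as given above. The part of progenitors in the Ddit4 and Sall1 levels was not tested.

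**Figure D4:**
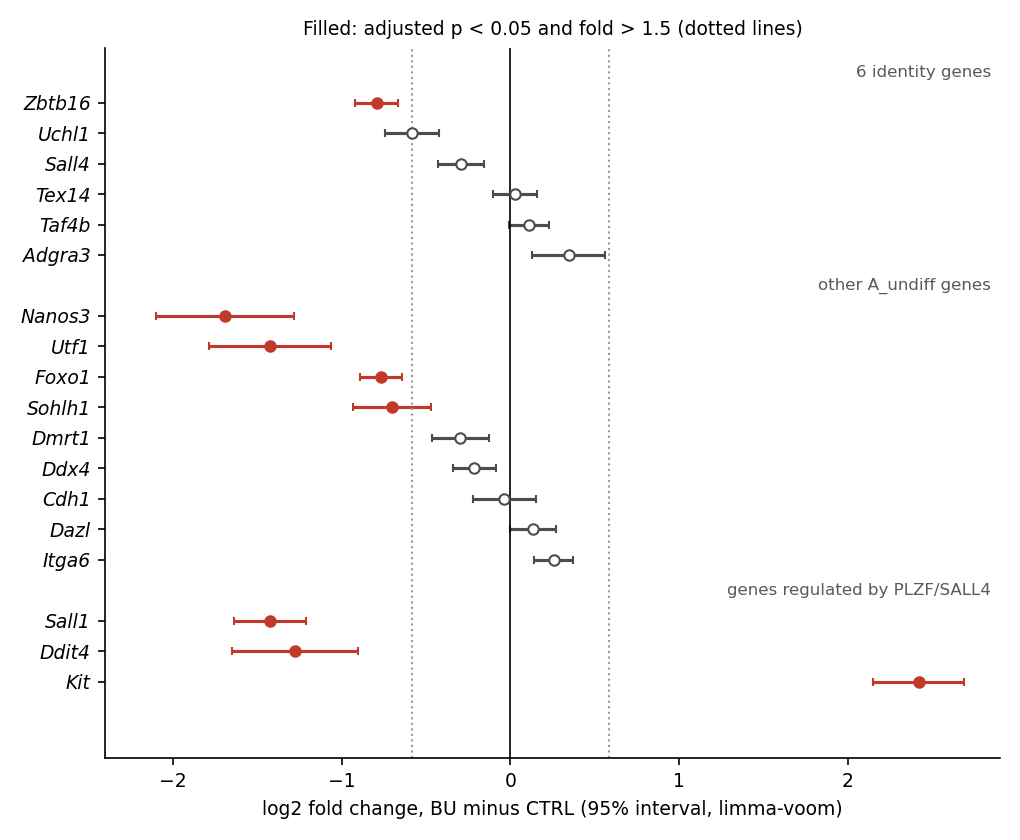
log2 fold change (BU minus CTRL) with 95% intervals from limma-voom for the 6 genes, 9 other A_undiff genes and 3 genes regulated by PLZF or SALL4. Filled points are DEGs, and Zbtb16, Foxo1, Nanos3, Utf1, Sohlh1, Sall1 and Ddit4 lie left of the lower dotted line (1.5-fold) and Kit at 2.42.

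None of the 9 corepressor and ubiquitin ligase partners of PLZF was a DEG, and their median log2 fold change was 0.05. Hdac1 and Hdac3, histone deacetylases of these complexes, had log2 fold changes of 0.29 and 0.30 and Hdac4 of -0.23 (limma-voom adjusted p = 0.00297 to 0.0211), and that of Sin3b was 0.23 (adjusted p = 0.0644). Of 15 SALL family and NuRD genes in the table, only Sall1 fell and none rose (median -0.03). Chd4 and Chd3, the alternative helicases of NuRD, had log2 fold changes of 0.43 and -0.39 in opposite directions (limma-voom adjusted p = 2.35e-05 and 0.00058). Partner genes of PLZF and SALL4 thus stayed within 1.5-fold, other than Sall1. Of all genes tested, 13.3% were DEGs, so few calls among 9 and 15 genes do not set these lists apart.

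Of 16 TFIID genes in the table, 1 fell and none rose, against 13.3% DEGs among all genes (median log2 fold change 0.07). The one was Taf7l, the germ cell paralog of Taf7, at 209.5 ± 43.4 CPM in BU and 316.1 ± 29.6 CPM in CTRL (SD, n = 4 each, log2 fold change -0.62, limma-voom adjusted p = 0.000151). The log2 fold change of Taf7l was -0.52 without BU 3, -0.58 without BU 5 and -0.56 without CTRL 1, each just short of the fold threshold. Taf12 and Taf6 had log2 fold changes of 0.45 and 0.41, and Tbpl1, the TBP paralog, of -0.26 (limma-voom adjusted p = 0.000704 to 0.01). None of the 7 ubiquitin hydrolase and ubiquitin genes described was a DEG (median -0.03). Ubb, a polyubiquitin gene, had a log2 fold change of -0.32 (limma-voom adjusted p = 0.0059), and Uchl3 and Uchl5, the relatives of Uchl1, of 0.10 and 0.16 (adjusted p = 0.575 and 0.223).

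Intercellular bridge and midbody genes had a median log2 fold change of 0.40. Of these 13 genes, 1 rose, none fell, and 8 had an adjusted p below 0.05 at any fold. Among all genes, 13.3% were DEGs and 32.1% had an adjusted p below 0.05 at any fold. Kif23, the midbody kinesin, rose to 104.3 ± 8.10 CPM in BU, against 67.6 ± 2.77 CPM in CTRL (SD, n = 4 each, log2 fold change 0.63, limma-voom adjusted p = 2.49e-06). Its log2 fold change was 0.58 without BU 3 and BU 5, just under the threshold. Rbm44, a TEX14-binding bridge protein gene, had a log2 fold change of 0.50, Pdcd6ip, an abscission factor gene, of 0.42 and Anln, the anillin gene, of 0.35 (limma-voom adjusted p = 7.11e-06 to 8.25e-05). Tex14 itself, at 0.03, lay well below this median. The authors report raised cell cycle gene expression in regenerative A_undiff, and its part in these levels was not tested.

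Of 29 other adhesion receptor genes, 15 were in the table, 5 of which rose and none fell (median log2 fold change 0.20). Among all genes, 6.8% rose and 6.54% fell. Adgrl2, a latrophilin gene, rose to 111.4 ± 9.91 CPM in BU, against 57.9 ± 3.80 CPM in CTRL (SD, n = 4 each, log2 fold change 0.94, limma-voom adjusted p = 5.85e-08). Adgrb1 (log2 fold change 2.19) and Adgrb2 (1.30) rose too, at low levels of 3.60 and 4.06 CPM in BU and 0.842 and 1.67 CPM in CTRL. Adgra2 and Adgrf5, named after their values were seen, also rose (log2 fold changes 1.03 and 1.24). Adgrv1 had a log2 fold change of -0.41 (limma-voom adjusted p = 0.000782). Immune markers rose beside these receptors, as given above. Summed CPM of 4 endothelial markers was 23.6 to 31.1 in BU and 16.3 to 18.4 in CTRL, with 1 of the 4 (Kdr) rising, and their part in the adhesion receptor levels was not tested.

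**Figure D5:**
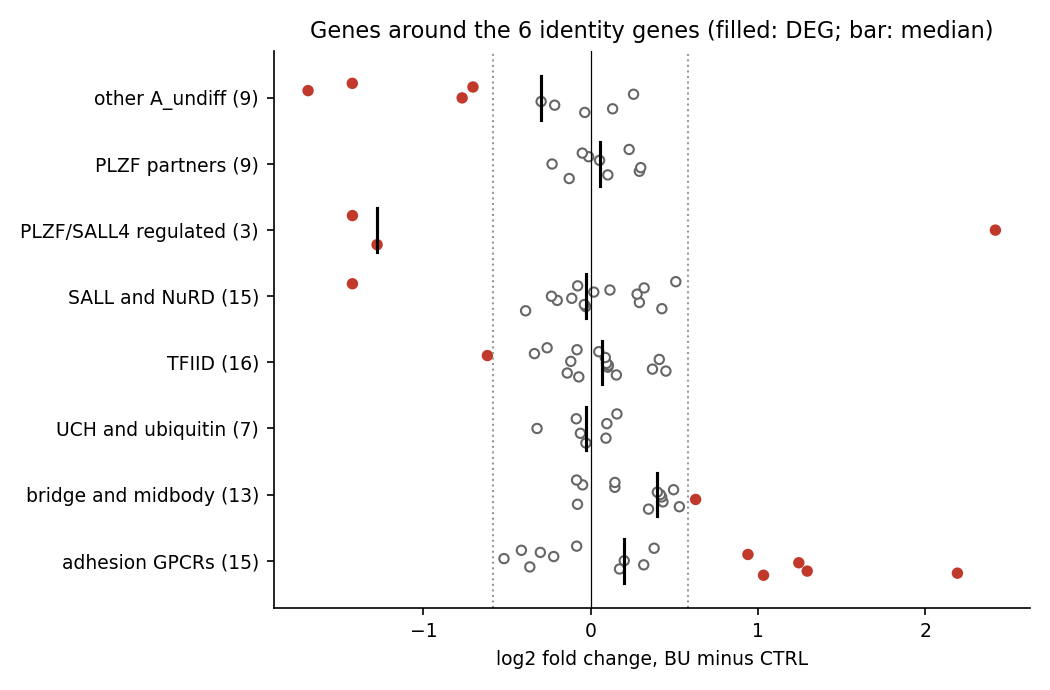
log2 fold change (BU minus CTRL) of each gene in 8 lists around the 6 genes, with the number in the table in parentheses, filled points for DEGs and a bar for each median. Partner complexes centre near 0, bridge and midbody genes at 0.40, and the adhesion receptors hold 5 of the genes that rose.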

How the data were processed

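RNA was extracted from sorted cells, amplified by SPIA (a NuGEN kit) and read in 100 bp pairs. The authors deposited raw counts per gene, made with featureCounts on GRCm38 per the labels, with exon positions and lengths. The aligner and the use of strand are not given in the sources used here. The authors' comparison columns (fold changes and p-values) were not used, nor were 8 per-sample CPM columns.

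Counts were scaled by TMM (edgeR 4.0.16) and tested with limma-voom (limma 3.58.1, R 4.3.3) after filterByExpr, with Benjamini-Hochberg adjustment over 14608 genes. DEGs had an adjusted p below 0.05 and a fold above 1.5. The deposited names of the BU columns run over 2 to 5 and the labels over 1 to 4, so these columns were used by group only. The counting errors given cover counting alone, whereas the 95% intervals come from the limma-voom fit. The fits were tested on simulated data. Alternatives were DESeq2 1.42.0, the quasi-likelihood test of edgeR, quality weights, other scalings, filters and thresholds, and leaving out libraries. The text names the 6 genes, for each the 3 genes of highest Pearson correlation (mean log2 CPM of at least 3), and up to 4 genes per list with the smallest adjusted p. Other list genes (Ddx4, Dazl, Dmrt1, Cdh1, Itga6, Adgra2 and Adgrf5) and the marker genes were named outside this rule, after their values were seen. These genes and lists were chosen with earlier results of these data known. One gene of the ubiquitin list is not reported here. Uchl1os was named because its exons overlap Uchl1. Marker lists of Leydig, Sertoli, peritubular myoid, meiotic and spermatid cells were also checked. Positions matched GENCODE M21.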

Additional observations from a re-analysis of the deposited data

Results flagged for a closer look

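Of 104 sets of 4 libraries examined, 4 had 1 library far from the others, and chance gives about 1 in 20. In BU, 1 library was highest for Kit (BU 4, 110.2 CPM), and others were lowest for Sin3b (44.6 CPM) and Uchl1os (1.28 CPM, BU 3). In CTRL, Kit was highest in CTRL 2 (20.9 CPM). None of these sets was of the 6 identity genes or of their ratios.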

How the results depend on the processing

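The log2 fold change of Zbtb16 ranged over -0.85 to -0.75 in 20 other settings and kept its call in 19, the exception being limma treat against a fold of 1.5 (-0.79, adjusted p = 0.0636). Uchl1 ranged over -0.64 to -0.44. It passed the criteria with library totals only (-0.60), with no fold threshold (-0.58) and without BU 2, BU 4, CTRL 1 or CTRL 4 (-0.64 to -0.53 over all libraries left out in turn). With no fold threshold Sall4 (-0.29) and Adgra3 (0.35) passed too. Taf4b and Tex14 kept their calls in 20 of 20 settings, and the sign of Tex14 varied (-0.05 to 0.06). The DEGs higher in BU numbered 993, against 604 with a filter of at least 5 CPM in 4 libraries, 2222 with no fold threshold and 171 with treat. The DEGs lower in BU numbered 956, against 2471 with no fold threshold and 204 with treat. Pair ratios moved by less than 1 SD in 150 of 150 values. Leaving out 1 of 4 libraries cannot move a group mean by 1 SD, so for those settings this outcome was fixed in advance. For 30 named list genes, 36 of 597 values had another call and 0 reversed. Leaving out BU 3 and BU 5 together was chosen after seeing the data. No paired analysis was possible because the BU columns do not carry the replicate numbers of the labels. The strict filter gave no value for genes it removed, and 4 libraries per group limit precision for low genes such as Uchl1os.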
